A study of Mus musculus with 2 samples.

Results

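The genes described are 10 integrin and adhesion genes, chosen by symbol from 55536 annotated mouse genes: the integrin alpha chains Itgam, Itgax, Itgal, Itga4 and Itgav, the beta chains Itgb1, Itgb2 and Itgb5, the adhesion ligand Icam1 and the hyaluronan receptor Cd44. Each symbol matched 1 gene identifier, and together they hold 57 annotated transcripts. Nucleoplasm RNA, the soluble fraction of the nucleus, was taken from macrophages, primary phagocytes that were grown from bone marrow of C57BL/6J mice. Every culture had received lipid A, the lipopolysaccharide part sensed by the receptor TLR4, at 100 ng/ml and was collected after 20 min. The 2 libraries are biological replicates of this 1 group, carry 1 donor identifier, and are not labelled as separate cultures or animals, and the labels give no age or sex. The RNA input differed, 1 µg for replicate 1 against 500 ng for replicate 2, so input and replicate cannot be told apart. No unstimulated library was analysed here, so the values below are levels and differences between 2 libraries, and no effect of lipid A was tested.

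Integrins are receptors of 1 alpha and 1 beta chain that bind matrix proteins or ligands on other cells and link them through talin and kindlin to actin. Leukocytes carry the beta 2 family, in which Itgb2 pairs with Itgal (LFA-1), Itgam (Mac-1) or Itgax (p150,95) and binds ICAM-1 and, for Mac-1, also complement fragment iC3b and fibrinogen. Itga4 pairs with Itgb1 to bind VCAM-1 and fibronectin, and Itgav pairs with Itgb1, Itgb5 and other beta chains to bind RGD-containing matrix proteins. Icam1 is a textbook target of NF-kB in inflamed cells, and CD44 binds hyaluronan.

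The gene tables held 18194818 and 18667509 expected counts in replicates 1 and 2, of which the 10 genes took 0.269% and 0.263%. The macrophage label was checked against 8 defining markers, and 8 of 8 reached 1 TPM (a level normalised for transcript length and library size) in each library, with a summed level of 3694 and 3380 TPM. Summed levels of the lists for other cells were 2.23 and 1.37 TPM for 6 neutrophil markers, with Ly6g at 0 counts, and 2.24 and 2.52 TPM for 5 dendritic cell markers. The T or NK cell list stood at 0.32 and 0.03 TPM over 6 markers, with Cd3e, Cd3g, Ncr1 and Klrb1c at 0 counts, and the B cell list at 0.15 and 0.26 TPM over 4. The platelet list reached 65.2 and 71.0 TPM over 5 markers, of which Pf4 and Itga2b reached 1 TPM in each library and Gp1bb had 0 counts. Pf4 made up most of that sum, with a highest value of 69.2 TPM, against 1.3 and 1.02 TPM for Itga2b. Stromal or endothelial markers summed to 6.13 and 3.82 TPM, mast cell or basophil markers to 1.37 and 1.27 TPM, and erythroid markers to 3.54 and 3.89 TPM. Zbtb46 of the dendritic cell list, Kdr, Kit and Alas2 also reached 1 TPM in each library. Over 2-fold lower in replicate 2 were the platelet markers Itga2b (45 and 16 counts) and Gp9 (15 and 4), and over 2-fold higher were Mpo of neutrophils (1 and 10) and Xcr1 of dendritic cells (3 and 11). The part of these cells in the results below was not tested. In such bulk samples fewer cells of a type and less RNA per cell cannot be told apart.

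All 10 genes were detected, and all 10 stood at 1 TPM or more in both libraries, a level reached by 23% of all genes and by 45% of protein-coding genes. The median level of the 10 was 56.5 ± 9.94 TPM (SD, n = 2), against 9.91 TPM for protein-coding genes that reached 1 TPM in both libraries. Icam1 had the highest mean, followed by Itgb2, Itgb1, Itga4, Cd44, Itgam, Itgb5, Itgav, Itgal and Itgax. Among neighbours in that order, the values of the 2 libraries overlapped for Icam1 with Itgb2, Itgam with Itgb5, Itgb5 with Itgav, and Itgal with Itgax, so those pairs did not differ beyond their spread. The other neighbours did not overlap. Beyond its neighbour, the Icam1 values (251 and 58.8 TPM) also spanned those of Itgb1, Itga4 and Cd44. In replicate 2 Icam1 stood below Itgb2, Itgb1, Itga4 and Cd44 in both quantifications, so its highest mean rests on replicate 1. TPM from the second quantification also put Icam1 highest by mean (75.6 ± 41.0) and Itgal and Itgax lowest. It put Itgb1 (71.2) above Itgb2 (69.4) by mean, and the libraries then differed more for several genes. Itgb2 stood at 52.9 and 86.0 TPM there, Itgb1 at 51.2 and 91.2, and Itga4 at 46.8 and 81.0, so the direction between libraries in TPM depends on the quantification for these genes. Differences between libraries are therefore given below in scaled counts. In the plot of levels 5 genes stood at 58.8 TPM or more in each library, 3 between 22.4 and 46.8 TPM, and 2 at 4.43 TPM or less.

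**Figure D1:**
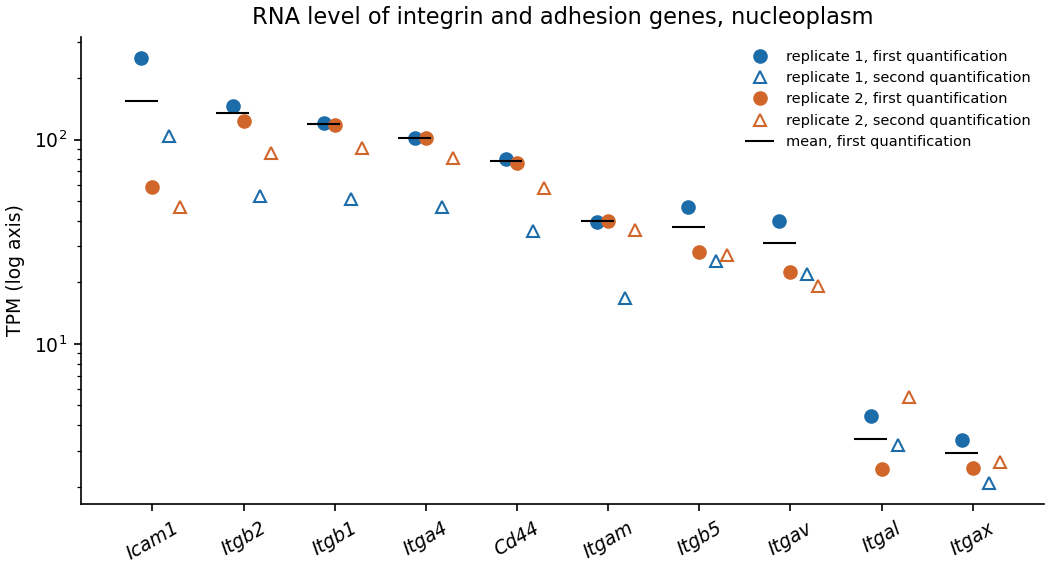
TPM of the 10 genes in each library on a log axis, with filled circles for the first quantification, open triangles for the second and a bar for the mean of the first. Icam1 differs most between libraries (251 and 58.8 TPM), while Itga4, Itgb1 and Cd44 nearly coincide in the first quantification, and Itgal and Itgax lie below the other 8 genes.

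Icam1 (ENSMUSG00000037405.8, mm10 chr9:21015985-21028817, plus strand) encodes the cell-surface ligand of the beta 2 integrins, and its RNA was the most variable of the 10. It held 10113 expected counts in replicate 1 and 2934 in replicate 2, or 251 and 58.8 TPM, and the library with the larger RNA input was the high one. Scaled to library size, the difference was a log2 ratio of -1.72 (replicate 2 over replicate 1, exact 95% counting interval -1.78 to -1.66), or 3.30-fold more in replicate 1. The second quantification gave 13813 and 4526 estimated counts and a log2 ratio of -1.85. Icam1 alone of the 10 genes was over 2-fold lower in replicate 2, against 3.64% of the 15557 genes whose scaled counts averaged at least 10. None of the 10 was over 2-fold higher, against 4.38% of those genes. With library totals in place of the scaling, 748 genes were over 2-fold lower and 529 higher, against 567 and 682 with the scaling used, and Icam1 had a log2 ratio of -1.82. The posterior SD of the Icam1 count, the uncertainty of assigning reads within a library, was 7 and 4.76 counts, far below the difference between the libraries. Gm47079, an antisense gene that shares 511 exonic bases with Icam1, held 364 and 117 counts. The strand setting of the counting is not known here, so reads of the overlap cannot be told apart.

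Icam1 has only 2 annotated transcripts, and both were well represented. Icam1-201 is the spliced coding transcript of 7 exons, and Icam1-202 consists of exon 1 and an exon 2 that runs on for 1825 bases into the second intron (chr9:21019180-21025543). The point where the transcripts part is shown because all reads that separate them lie beyond it. The end of exon 2 is in lower case, and the bases that follow it in each transcript are in capitals, from the GENCODE M21 transcripts (mm10, plus strand, exon 2 at chr9:21018919-21019179).
Icam1-201: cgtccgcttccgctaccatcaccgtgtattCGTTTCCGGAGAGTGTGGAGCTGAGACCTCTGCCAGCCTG
Icam1-202: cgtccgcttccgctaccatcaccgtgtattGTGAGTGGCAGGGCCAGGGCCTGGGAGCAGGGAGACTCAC
The intronic line opens with the donor-site bases GTGAGT, which splicing removes from Icam1-201.

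The intron-holding Icam1-202 took more of the gene's TPM than the coding transcript. It held 5979 counts in replicate 1 and 1515 in replicate 2, while Icam1-201 held 4135 and 1418. As a share of the gene's TPM, Icam1-202 took 62.8% and 55.5%, a mean of 59.1% ± 5.17 (SD, n = 2), and 55.6% and 52.8% in the second quantification. In counts the second quantification gave 7157 and 2219 for Icam1-202 and 6656 and 2307 for Icam1-201. There the coding transcript was slightly ahead in replicate 2. Both transcripts were lower in replicate 2, with log2 ratios of -1.92 (-2.0 to -1.84) for Icam1-202 and -1.48 (-1.57 to -1.39) for Icam1-201. The counting intervals of the 2 transcripts do not overlap, but the second quantification put them closer, at -1.93 and -1.77.

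The stretch upstream of Icam1 is shown because Icam1 stands apart from the other members and is known as an NF-kB target. The 250 bases before the RefSeq start are printed (GRCm38.p6, chr9:21015690-21015939, plus strand). They were searched on both strands together with the next 50 bases, and capitals mark the motif GGAAANTCC, an NF-kB-type element written with the known Icam1 element in mind.
Icam1 upstream: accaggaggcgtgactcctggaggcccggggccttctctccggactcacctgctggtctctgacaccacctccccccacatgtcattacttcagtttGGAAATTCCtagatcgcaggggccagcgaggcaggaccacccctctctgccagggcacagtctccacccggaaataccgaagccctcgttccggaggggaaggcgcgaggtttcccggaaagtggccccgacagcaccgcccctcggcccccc
The match starts at position -153 from the RefSeq start and -198 from the GENCODE start. The same letters occur in 1.25% of 32851 RefSeq promoter windows, and in none of the other 7 member windows that were found (Itgal and Itgb2 had no entry). A TATAAA lies at -32 from the GENCODE start of Icam1, which is position 13 from the RefSeq start, past the printed bases. That motif is held at any position by 13.6% of windows. The stricter NF-kB consensus matched none of the 8 member windows and 8.46% of all windows. The AP-1 motif TGANTCA was found for Itgax alone (7.81% of all windows) and the PU.1 motif GAGGAAGT for Itgav alone (3.20%). These matches describe letters and show no binding.

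Itgb2 (ENSMUSG00000000290.13, chr10:77530252-77565708), the beta chain shared by all leukocyte integrins of this family, was the steadiest of the 10 genes in scaled counts. It held 7522 counts in replicate 1 and 7190 in replicate 2, with a log2 ratio of -0.00215 (-0.0490 to 0.0447), and stood at 147 and 123 TPM. Itgam (ENSMUSG00000030786.18, chr7:128062640-128118491), the alpha chain of Mac-1 and a standard myeloid marker, held 3288 and 3882 counts, or 39.62 and 40.04 TPM. Its log2 ratio was 0.30 (0.24 to 0.37), so it was higher in replicate 2 by more than counting error, though only 1.23-fold. Of the Itgam TPM, the coding transcripts Itgam-203 and Itgam-201 took 57.4% and 38.5% in replicate 1 and 55.3% and 37.5% in replicate 2. The plus-strand gene Gm49368 covers 68.7% of Itgam's exonic bases, but it was assigned only 14.3 and 9.39 counts, and the Itgam ratio with both genes summed was 0.30.

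The other alpha chains of Itgb2 were scarce. Itgal (ENSMUSG00000030830.18, chr7:127296260-127335138), the LFA-1 alpha chain that lymphocytes carry in abundance, held 361 and 241 counts, or 4.43 and 2.43 TPM. Itgax (ENSMUSG00000030789.9, chr7:128129547-128150657), the CD11c chain used as a dendritic cell marker, held 200 and 172 counts, or 3.38 and 2.46 TPM. Both were lower in replicate 2, Itgal beyond counting error (log2 ratio -0.52, -0.76 to -0.28) and Itgax not (-0.15, -0.46 to 0.15). Itgax-201 took 76.6% and 74.8% of the Itgax TPM, but 51.6% and 48.2% in the second quantification. Itgax-203 took 14.2% and 11.4%, on 9.28 and 6.52 counts. Itgam made up 83.5% and 89.1% of the summed TPM of the 3 alpha chains. That sum came to 32.3% of the Itgb2 level in replicate 1 and 36.5% in replicate 2, a mean of 34.4% ± 2.94 (SD, n = 2), and to 46.7% ± 6.91 (SD, n = 2) in the second quantification. These are proportions of nucleoplasmic RNA and not of protein.

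The steady total of Itgb2 hid a different split over its transcripts. The coding transcript Itgb2-201 held 7380 counts in replicate 1 and 4525 in replicate 2, whereas Itgb2-204, a transcript of the nonsense-mediated decay class that leaves out exon 12 (chr10:77559479-77559723, 245 bases), held 17.6 and 2301. Itgb2-204 was named after its values were seen. Nonsense-mediated decay removes transcripts with an early stop codon. Itgb2-201 and Itgb2-204 also differ at their ends, with exon 1 from 77530252 against 77530380 and the last exon to 77565686 against 77565708. Reads there can also sort counts between the transcripts, so these counts do not measure the skipping of exon 12 alone. The joins after exon 11 are shown with the end of exon 11 in lower case and what follows in capitals (mm10, plus strand, exon 11 at chr10:77557952-77558139).
Itgb2-201: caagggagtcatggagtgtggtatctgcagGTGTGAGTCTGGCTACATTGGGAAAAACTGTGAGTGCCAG
Itgb2-204: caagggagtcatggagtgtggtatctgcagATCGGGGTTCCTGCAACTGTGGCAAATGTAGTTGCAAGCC
The share of Itgb2 TPM on Itgb2-204 was 0.259% in replicate 1 and 33.3% in replicate 2. In the second quantification it was 2.32% and 8.41%, with 183 and 787 counts, so the direction was the same and the size was not. That quantification put more of the gain on Itgb2-205, another decay-class form, at 332 and 1437 counts where the first gave 99.4 and 328. Over all decay-class transcripts of Itgb2 the share of counts was 1.56% and 36.6% in the first quantification and 5.90% and 22.8% in the second.

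Itgal's reads were also assigned to different transcripts in the libraries. Itgal-201 has 3 bases more than Itgal-202 at the end of exon 18, starts 31 bases later and ends 1 base later. The exon 18 difference is shown in capitals within lower-case flanks (mm10, plus strand, exon 18 of Itgal-202 at chr7:127317277-127317363).
Itgal-201: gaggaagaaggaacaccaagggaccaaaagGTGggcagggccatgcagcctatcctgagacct
Itgal-202: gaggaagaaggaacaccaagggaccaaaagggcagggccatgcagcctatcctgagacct
Itgal-201, with the longer exon 18, was assigned 199 counts in replicate 1 and 0 in replicate 2. Itgal-201 and Itgal-202 share all their other bases, so most of their reads fit both. The split is therefore uncertain, and an assigned 0 is not an observed absence. Itgal-202 held 71.8 and 99.2 counts, and Itgal-203, which starts further downstream and uses the shorter exon 18, held 35.6 and 99.7. Itgal-204 held 53.9 and 42.1 counts, or 14.9% and 17.3% of the gene's TPM. The second quantification gave Itgal-201 275 counts in replicate 1 and less than 1 in replicate 2, and Itgal-202 0 and 87.2. Itgal-201 was named after its values were seen.

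**Figure D2:**
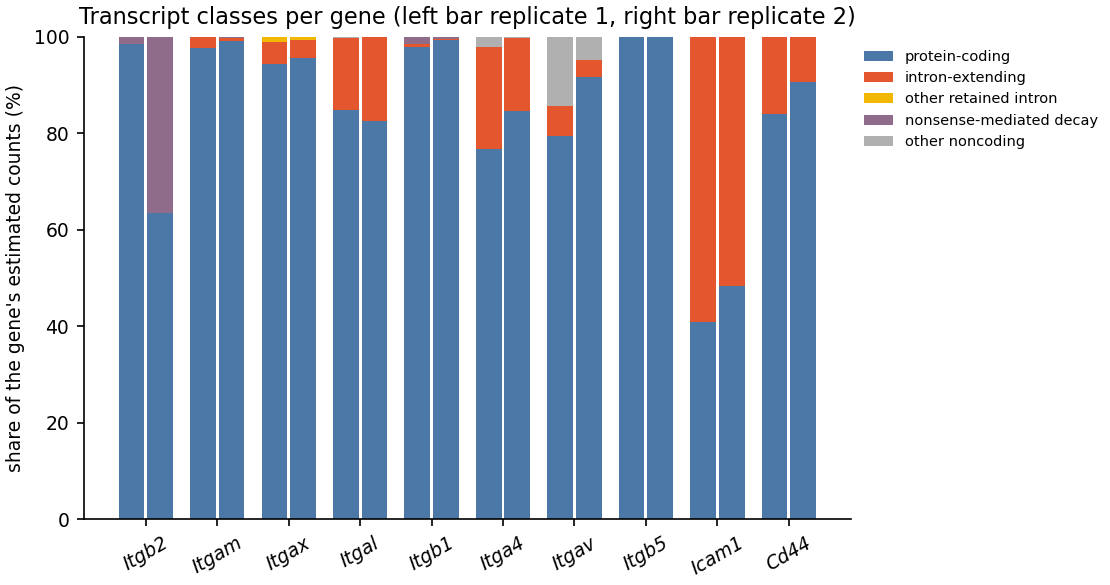
Share of each gene's expected counts (percent) on transcript classes in replicate 1 (left bar) and replicate 2 (right bar), with intron-extending transcripts in red whatever their annotated class. Icam1 is the gene with most counts on an intron-extending transcript (59.1% and 51.7%), and Itgb2 has a larger nonsense-mediated decay share in replicate 2 (36.6%) than in replicate 1 (1.56%).

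Itgb1 (ENSMUSG00000025809.15, chr8:128685654-128733200), the most widely shared integrin beta chain, was abundant, with few counts on intron-extending transcripts. It held 7826 counts in replicate 1 and 9637 in replicate 2, or 121 and 118 TPM, and its coding transcript Itgb1-201 took 92.6% and 97.0% of that TPM. Itga4 (ENSMUSG00000027009.18, chr2:79255426-79333123), the alpha chain of VLA-4, held 9727 and 14087 counts, or 102.4 and 101.9 TPM. The log2 ratios of scaled counts were 0.36 (0.32 to 0.41) for Itgb1 and 0.60 (0.56 to 0.63) for Itga4, so both were higher in replicate 2 beyond counting error. On the TPM scale their log2 ratios were -0.03 and -0.00805, where the median of all genes lay at -0.35. For Itga4 the gene length given with the first quantification was 5207 bases in replicate 1 and 6172 in replicate 2. It was longer in replicate 2 because counts were assigned to longer transcripts there. The Itga4 level was 85.7% ± 1.07 of the Itgb1 level (SD, n = 2), and 90.2% ± 1.87 (SD, n = 2) in the second quantification. In scaled counts the proportion was not constant, since the intervals of their log2 ratios do not overlap.

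By share of TPM, Itga4 was second to Icam1 in intron-extending transcripts. Itga4-201, the coding form of 28 exons, took 40.1% and 52.8% of the gene's TPM, and Itga4-205, whose exon 2 runs 1553 bases into the second intron, took 26.4% and 29.8%. Itga4-204, which ends 864 bases into a later intron, took 16.4% and 12.1%. The end of exon 2 and what follows it are shown as for Icam1 (mm10, plus strand, exon 2 at chr2:79256178-79256299).
Itga4-201: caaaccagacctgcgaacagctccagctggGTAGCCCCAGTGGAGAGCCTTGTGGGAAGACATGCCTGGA
Itga4-205: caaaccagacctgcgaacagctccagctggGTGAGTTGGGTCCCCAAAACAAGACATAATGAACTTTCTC
In counts the intron-extending share of Itga4 was 21.2% in replicate 1 and 15.2% in replicate 2, the latter below the 17.5% of Itgal, lower than in TPM because those transcripts are short. Icam1-202 and Itga4-205 are alike in form, since each has 2 exons, of which the second runs on into the second intron. Exon 1 of Itga4-205 also differs, since it starts earlier and ends later than that of Itga4-201.

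Itgav and Itgb5, which form the vitronectin receptor alpha V beta 5 of phagocytes, were expressed at similar levels. Itgav (ENSMUSG00000027087.11, chr2:83724397-83806916) held 2586 and 2338 counts, or 39.8 and 22.4 TPM. Itgb5 (ENSMUSG00000022817.15, chr16:33829665-33949338), the longest gene of the 10 at 119.7 kb, held 2460 and 1759 counts, or 46.8 and 28.2 TPM. Both were higher in replicate 1 in these TPM, where the median log2 ratio of all genes was -0.35. The second quantification put Itgav at 21.9 and 19.2 TPM but Itgb5 at 25.6 and 27.3, higher in replicate 2. In scaled counts Itgb5 had a log2 ratio of -0.42 (-0.51 to -0.33) and Itgav -0.0825 (-0.164 to -0.00122). The Itgav level was 85.1% of the Itgb5 level in replicate 1 and 79.4% in replicate 2, and 85.6% and 70.3% in the second quantification. Itgav-201, the coding form of 30 exons, took 38.7% and 56.2% of the Itgav TPM, and the short Itgav-205 took 10.9% and 11.5%, though the second quantification gave Itgav-205 0 counts in both libraries. Itgb5-202 took 74.1% and 66.7% of the Itgb5 TPM, and Itgb5-207, which starts at a later first exon, took 25.3% and 31.9%.

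Cd44 (ENSMUSG00000005087.17, chr2:102811141-102901665, minus strand), the receptor for hyaluronan, held 4892 counts in replicate 1 and 6867 in replicate 2, or 80.2 and 76.8 TPM. Its log2 ratio in scaled counts was 0.55 (0.50 to 0.61), the second highest of the 10, and -0.06 on the TPM scale, where all genes had a median of -0.35. CD44 is known for variable exons that are added between constant ones, and 3 forms that part at the end of exon 5 are shown, with what follows exon 5 in capitals (mm10, minus strand, exon 5 at chr2:102853015-102853236).
Cd44-203: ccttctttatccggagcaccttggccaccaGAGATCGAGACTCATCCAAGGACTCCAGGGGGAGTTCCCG
Cd44-207: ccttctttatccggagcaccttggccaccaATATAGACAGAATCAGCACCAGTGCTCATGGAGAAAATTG
Cd44-209: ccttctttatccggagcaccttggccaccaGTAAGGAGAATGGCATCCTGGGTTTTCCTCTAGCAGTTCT
Cd44-203 joins exon 5 to the next constant exon, Cd44-207 joins it to the first of 5 variable exons, and Cd44-209 runs on into the intron and ends there.

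Counts were assigned to all 3 of these Cd44 forms. Cd44-203 took 30.4% of the gene's TPM in replicate 1 and 14.1% in replicate 2, Cd44-207 took 38.5% and 64.0%, and Cd44-209 took 30.4% and 21.4%. The split between forms is uncertain, because in this annotation a last exon of 3197 bases occurs only on Cd44-201 and Cd44-207, and both carry variable exons. The last exon of Cd44-203 lies within it, so it is reads from the 1406 bases beyond Cd44-203 that count towards those variable forms, whatever exons their own RNA held. The second quantification assigned 3113 and 3991 counts to Cd44-201, where the first gave 40.5 and 14.9.

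Intron-extending transcripts were annotated for 8 of the 10 genes, all but Itgb2 and Itgb5. Their share of TPM had a median of 15.7% ± 0.873 over those 8 (SD, n = 2), against 27.6% ± 0.443 over the 6482 genes that have such transcripts and average at least 1 TPM. Icam1 (59.1% ± 5.17), Itga4 (49.8% ± 5.08) and Cd44 (25.9% ± 6.36) had the larger shares, and Itgb1 (4.04% ± 2.12) and Itgam (1.80% ± 1.31) the smaller (SD, n = 2). For the annotated retained-intron class, which 5 of the 10 genes have, the median was 15.8% ± 2.78 against 32.5% ± 0.671 over 6517 genes (SD, n = 2). With the second quantification these medians were closer, at 31.0% and 36.5%. Only introns that some annotated transcript holds are counted in this way, so the shares do not measure all unspliced RNA. In the first quantification the share was larger in replicate 1 for Icam1, Itga4, Cd44, Itgav, Itgb1, Itgam and Itgax and smaller for Itgal, and each of these differences rests on 1 library a side.

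Between the libraries the 10 genes moved in both directions. Beyond counting error 4 were lower in replicate 2, against 25.4% of all genes tested, and 4 were higher, against 24.7%. Those lower were Icam1, Itgal, Itgb5 and Itgav, those higher were Itga4, Cd44, Itgb1 and Itgam, and the intervals of Itgb2 and Itgax held 0. In the second quantification 6 were lower, Itgb2 and Itgax added, and 4 higher, against 25.9% and 27.0% of 24466 genes. Scaled on genes averaging at least 100 counts, 3 were lower, without Itgav, and 4 higher, against 31.0% and 31.3% of 9841 genes. With no filter on low counts those shares of all genes were 17.9% and 17.0%, so they rose with the minimum count. The median log2 ratio of the 10 was -0.0423 against 0.00685 over all 15557 genes, and apart from Icam1 no member differed by more than 0.60 in either direction. The central 95% of all genes lay between -1.20 and 1.28, so Icam1 fell outside that range and the other 9 inside it. Relative to the median of all genes, Itga4, Cd44, Itgb1 and Itgam stood above it and Icam1, Itgb5, Itgal, Itgax and Itgav below it in 8 of 8 settings of scaling, filter, prior count and quantification. Itgb2 stood above it in 2 settings and below it in 6. The plot of ratios gives both quantifications side by side.

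**Figure D3:**
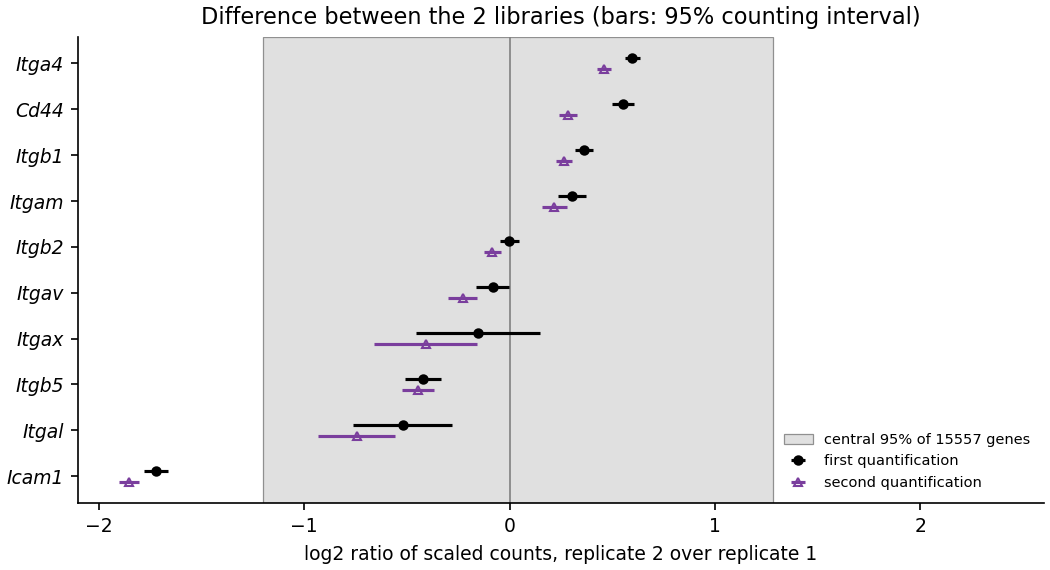
Log2 ratio of scaled counts, replicate 2 over replicate 1, for each gene in the first (circles) and second (triangles) quantification, with bars for the exact 95% counting interval and a grey band for the central 95% of 15557 genes. Icam1, at -1.72 and -1.85, is the gene outside the band, and the other 9 lie between -0.74 and 0.60.

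The order of the ratios moved with the base composition of the transcripts. Itga4 had the lowest GC content of the 10, at 41.1% of its longest coding transcript, and the highest ratio, whereas Icam1 at 55.4% and Itgb5 at 57.0% were among the lowest ratios. Across the 10 genes, which share the same 2 libraries and are not replicates, Pearson's r was -0.73 and Spearman's rho -0.82, and without Icam1 r was -0.80 over 9 genes. All genes showed a like but shallower course: the median ratio was 0.23 in the lowest of 10 equal bins of GC content and -0.32 in the highest. Icam1 minus the median of its own bin was -1.58, so its difference was nearly as large among genes of like GC content. With those medians taken off, Itga4 was at 0.36, Cd44 at 0.46, Itgb5 at -0.20 and Itgav at -0.23. The part of GC content in these differences was not tested.

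**Figure D4:**
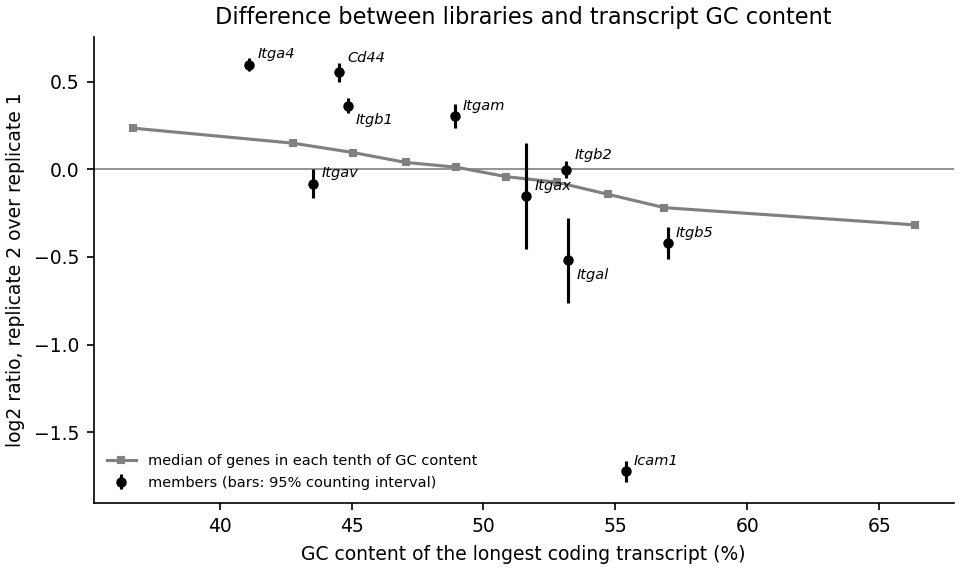
Log2 ratio of replicate 2 over replicate 1 against GC content (percent) of the longest coding transcript, with points for the 10 genes, bars for 95% counting intervals and a grey line for medians over 10 equal bins of genes by GC content. Most members follow the falling course of the line, and Icam1 (55.4% GC, -1.72) lies far below it.

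The other chains and partners of these receptors were described from lists. Of 13 further integrin alpha chains 4 stood at 1 TPM or more in both libraries, led by the laminin receptor chain Itga6 at 53.5 ± 6.99 TPM and the fibronectin receptor chain Itga5 at 43.4 ± 30.4 TPM (SD, n = 2). Itga5 had a log2 ratio of -0.79 (-0.88 to -0.69), or -1.33 in the second quantification, on the side of Icam1 and not of its partner Itgb1, and Itga10 had -0.93 on 68.3 and 34 counts. Of 6 further beta chains Itgb3, the partner of Itgav in the classical vitronectin receptor, at 5.74 TPM, and Itgb7, a partner of Itga4, at 4.50 TPM, reached 1 TPM in both libraries. Itgb1 and Itgb5 were thus the higher of the measured beta partners of Itgav, and Itgb1 of Itga4.

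Immunoglobulin-family ligands other than Icam1 were mostly low, with 2 of 12 reaching 1 TPM in each library and 9 below it in both. Cd47, the signal that restrains phagocytes, stood at 59.4 ± 2.22 TPM (SD, n = 2) with a log2 ratio of 0.52. Vcam1, the ligand of Itga4 and Itgb1, held 449 counts in replicate 1 and 155 in replicate 2, a log2 ratio of -1.47 (-1.74 to -1.20), and was the 1 gene of that list over 2-fold lower. In the second quantification the Vcam1 ratio of scaled counts was -0.93, lower in replicate 2 but under 2-fold. Icam4, the neighbour of Icam1, had 0 counts in both libraries. Selectins and their ligands had 2 of 6 members at 1 TPM or more, the Golgi protein gene Glg1 at 29.7 ± 5.20 TPM and the P-selectin ligand gene Selplg at 25.3 ± 3.61 TPM (SD, n = 2), with log2 ratios of -0.00188 and 0.28. Podxl, a sialomucin gene, had 0.39 on 69 and 87 counts.

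The machinery that links integrins to actin was widely present, with 21 of 26 activation and adaptor genes at 1 TPM or more in both libraries. Fyb, the adaptor ADAP, led at 345 ± 83.7 TPM, followed by talin 1 (Tln1) at 160 ± 48.3 TPM (SD, n = 2). In 21 genes with enough counts the median log2 ratio was -0.09, with 10 lower and 4 higher beyond counting error, where 25.4% and 24.7% of all genes tested were. Vasp, an actin-filament elongation factor, was the 1 gene over 2-fold lower, at -1.20 (-1.38 to -1.03). Zyx, a focal adhesion protein gene, had -0.71. Of 13 kinases and substrates near integrins 10 stood at 1 TPM or more in both libraries, led by the ITAM adaptor Fcer1g at 170 ± 31.4 TPM and the kinase Syk at 163 ± 59.6 TPM (SD, n = 2). Fcer1g had a log2 ratio of 0.80, Syk -0.40 and Src -0.75, the last on 67 and 38 counts.

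Matrix ligands and CD44 partners completed the lists. Of 12 matrix genes 4 reached 1 TPM in each library. Osteopontin (Spp1), a ligand of alpha V integrins and of CD44, exceeded every member at 651 ± 52.3 TPM (SD, n = 2) with a log2 ratio of 0.19. Thrombospondin 1 (Thbs1) followed at 282 ± 65.3 TPM (SD, n = 2) and -0.14, while Lamc1 had 0.38 and Mfge8, which bridges dying cells to alpha V integrins, had -0.35. Of 12 CD44 partner and hyaluronan genes 11 matched a symbol and 6 stood at 1 TPM or more in both libraries. Moesin (Msn), which links CD44 to actin, was at 84.3 ± 6.05 TPM (SD, n = 2), close to Cd44 itself, with a log2 ratio of 0.60 beside 0.55 for Cd44. Merlin (Nf2) was at 19.4 ± 7.49 TPM (SD, n = 2) and -0.26, and the hyaluronan synthase gene Has3 had 0.77 on 103 and 168 counts. Among 68 genes of the 8 lists with enough counts 3 were over 2-fold lower in replicate 2, which were Vcam1, Vasp and, named after its values were seen, Itga2b at -1.40 on 45 and 16 counts.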

How the data were processed

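RNA depleted of ribosomal RNA was quantified in 2 libraries of 1 group. Per the README notes deposited with the files, the assembly was mm10 and the annotation GENCODE M21. The authors deposited a table per library of gene and transcript values with RSEM-type columns, per the file headers: FPKM, TPM and expected counts, a posterior SD of each count (a score here) and the percent of a gene's TPM on each transcript. A further deposited table per library has kallisto-type columns with estimated counts and TPM, and was summed per gene here as the second quantification. Program versions, filters and the strand setting of the authors are not known here.

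All 55536 mouse gene identifiers matched GENCODE M21, and other entries stayed out of library sizes. At these totals a count of 0 allows 3 counts, which is 0.165 and 0.161 CPM. Expected counts were rounded and scaled with edgeR 4.0.16 (TMM) in R 4.3.3, over genes averaging at least 10 scaled counts. The log2 ratio took a prior count of 0.5, and its interval was an exact (Clopper-Pearson) binomial 95% interval. A call needed over 2-fold and an interval clear of 0. Intervals and the limit for 0 cover counting error only, because they are computed from counts alone and leave out variation between preparations. PCR reads lack molecular identifiers, so copies of 1 molecule can count more than once and the intervals can be too narrow. A transcript was intron-extending if an exon ran at least 100 bases past a donor site of the gene's longest coding transcript. That measure and the GC comparison were added after the data were seen. Python 3.11.15 was used with pandas 2.3.3, scipy 1.17.1, matplotlib 3.10.9 and numpy 2.4.6. Simulated counts with known changes served to test the ratio script before use.

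The members, adhesion lists, markers and motifs were chosen with earlier results of these data known. The rule named all members, their leading transcripts, transcripts with 10% or more of the gene's TPM in each library, and per list the 2 highest genes and up to 2 with the largest ratio at 50 or more mean scaled counts. Likeness of pattern between genes was not computed, because 2 libraries give 1 difference per gene. Alternatives were library totals, TPM ratios, DESeq2 1.42.0 size factors, another prior count, other minimums, FPKM, posterior-mean TPM, the second quantification, rescaled TPM and the omission of each library. With 1 group, no test between groups was possible. A listed gene's result is not reported here.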

Additional observations from a re-analysis of the deposited data

How the results depend on the processing

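Icam1 was over 2-fold lower in replicate 2 under 8 of 8 alternatives in which its log2 ratio was computed (-2.09 to -1.58). These included the adjustment for GC content. It was the only member with a call, and ratios without a call did change sign. With TPM ratios Itga4 was at -0.008, Cd44 at -0.06 and Itgb1 at -0.03, where all genes had a median of -0.35. Itgb2, slightly negative in the main setting, was at 0.022 with the minimum of 100 counts and at 0.072 after the GC adjustment. The median log2 ratio of the 10 genes was -0.14 with library totals, -0.35 with TPM ratios and -0.16 with the second quantification, against -0.0423. Among all genes the over 2-fold split was 567 lower and 682 higher, 1507 and 255 with TPM ratios, 988 and 1887 with the second quantification, and 174 and 160 where scaled counts had to average at least 100. The median level of the 10 was 36.1 TPM with the second quantification and 226 TPM rescaled over nuclear protein-coding genes, against 56.5, and 49.4 to 63.5 when either library was left out. The median retained-intron share was 4.90% in counts and 31.0% with the second quantification (all genes 36.5%), against 15.8%, and the median intron-extending share was 8.62% in counts, against 15.7%. Beyond counting error 3 to 7 members were lower and 0 to 4 higher, with 7 and 0 for TPM ratios, where 51.9% of all genes were lower and 7.48% higher. The cause of these shifts was not tested. Of single-member values under these alternatives, 31 of 81 log2 ratios moved beyond the counting interval, and 24 of 60 levels, 8 of 32 intron-extending shares and 6 of 25 retained-intron shares moved beyond the SD of the libraries. Ratios need both libraries, so leaving one out gives none. No paired analysis was possible because there is 1 group. Depth limits Itgax and Itgal, with 172 to 361 counts a library, and their transcripts most.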

Other observations

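Transcribed units inside or beside the member genes were not used in the comparisons. Gm13684, an antisense noncoding gene within Itgav (chr2:83737782-83759865, mm10), held 217 counts in replicate 1 and 78.2 in replicate 2, or -1.41 on the log2 scale (-1.81 to -1.03 by counting error). It shares 634 exonic bases with Itgav, and with the strand setting unknown, reads of that overlap cannot be told apart. Dnmt3l-ps1, a pseudogene in the same interval, held 106 and 35 counts. Gm47079, which overlaps the end of Icam1, had a log2 ratio of -1.57 (-1.89 to -1.27), beside -1.72 for Icam1. Itgav-209, a noncoding form that ends in an exon of 2186 bases within the second intron of Itgav, held 351 and 110 counts, while the coding Itgav-201 held 2003 and 1997. Itga4-203, a noncoding form with its own last exon, held 204 and 38.8 counts, and 1040 and 492 in the second quantification. These items were picked after their values were seen, and no cause was tested.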
